A study of Homo sapiens with 6 samples.

Results

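The locus described here is the 1 Mb around ELL2 and PCSK1 on 5q15, taken as all open-chromatin regions that overlap chromosome 5 from 95000000 to 96000000 (hg19). It was chosen with measured values of these same libraries in view, so its peaks are described over time and not tested. Merging the peaks of 6 lists gave 119 regions in it, of 167726 regions on the autosomes and X.

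The libraries came from 22Rv1, an established human prostate cancer cell line, and all of them carry the label FOXA1_dTAG. They fall into 3 groups by time, 0 h, 1 h and 24 h, with 2 libraries each and 6 in all. A dTAG is a tag fused to a protein so that a small molecule can send that protein to degradation. The labels give neither the molecule nor its dose, do not say what the 0 h cells received or whether the line is 1 clone, and do not say whether replicates are cultures of their own, so what separates them may be technical.

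ATAC-seq uses a transposase that cuts and tags accessible DNA, so that peaks of tags mark open promoters and enhancers. FOXA1 is a forkhead pioneer factor: it binds closed chromatin at its motif and lets other factors, among them the androgen receptor in luminal prostate cells, reach their sites. ELL2 is an elongation factor that keeps RNA polymerase II from pausing and is part of the super elongation complex, and in prostate cells it is known as an androgen-responsive gene. PCSK1 encodes prohormone convertase PC1/3, which cleaves precursors such as proinsulin and proopiomelanocortin in endocrine and neuroendocrine cells. Both genes are read toward lower coordinates. Distances below are from the midpoint of a region to the start of ELL2, and upstream of ELL2 means toward PCSK1.

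The start of PCSK1 is shown as sequence because it kept a weak region in all 6 lists, and because the motif bound by forkhead factors can be looked for in it directly. RefSeq's promoter table (GRCh38.p14) matched 1 of the 2 genes, PCSK1, with 2 starts 1088 bp apart. Each sequence runs from 250 bases before the start to 50 after it on the minus strand. The build differs from that of the peaks and no coordinate was converted. Capitals mark the forkhead motif (TGTTTAC or TGTTTGC, either strand) and the cyclic AMP response element (TGACGTCA).

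PCSK1 first start, chr5:96433199-96433498: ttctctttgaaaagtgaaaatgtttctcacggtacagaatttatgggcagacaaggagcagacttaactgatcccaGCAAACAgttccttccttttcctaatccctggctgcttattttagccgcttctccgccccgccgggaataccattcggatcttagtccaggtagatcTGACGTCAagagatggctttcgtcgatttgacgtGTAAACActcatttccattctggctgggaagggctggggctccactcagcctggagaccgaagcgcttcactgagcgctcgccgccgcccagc

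PCSK1 second start, chr5:96432111-96432410: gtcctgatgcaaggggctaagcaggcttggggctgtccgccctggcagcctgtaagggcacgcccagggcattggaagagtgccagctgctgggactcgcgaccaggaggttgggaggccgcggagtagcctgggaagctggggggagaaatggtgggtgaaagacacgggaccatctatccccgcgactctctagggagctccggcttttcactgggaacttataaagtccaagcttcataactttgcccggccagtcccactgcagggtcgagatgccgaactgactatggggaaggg

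The first PCSK1 start held GTAAACA 43 bases before the start of transcription, GCAAACA 174 bases before it and a full cyclic AMP response element 77 bases before it. The second held none of these. Across 35116 promoters of the same length, TGTTTAC was present in 3.42%, TGTTTGC in 3.89% and TGACGTCA in 1.85%. A GC box (GGGCGG, either strand) was present in both starts and in 44.95% of all promoters. An AP-1 motif (TGANTCA), present in 7.71% of promoters, and a hormone response element half-site (AGAACA), present in 14.8%, were found in neither start. A match to letters is a description and not a binding site.

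Peaks were listed in the locus in similar numbers at each time, 82 and 82 at 0 h, 81 and 84 after 1 h, and 84 and 81 after 24 h. They covered 40.05 and 32.27 kb at 0 h, 39.1 and 37.32 kb at 1 h, and 33.75 and 33.65 kb at 24 h, or 36.2 ± 5.50, 38.2 ± 1.26 and 33.7 ± 0.0707 kb (mean ± SD, n = 2 each). The 0 h libraries spanned the values of the others, while both 24 h values lay below both 1 h values. Strong regions, those holding a peak with a −log10 q of at least 10, numbered 40 and 41 at 0 h, 38 and 41 after 1 h, and 43 and 44 after 24 h. The whole lists were shorter at 24 h than at 0 h and overlapped in length with those at 1 h, with 118259 and 125396 peaks at 0 h, 110661 and 117942 after 1 h, and 101755 and 114362 after 24 h. Relative depth, estimated from the lists in tags per kb, was 10.45 and 8.24 at 0 h, 8.14 and 8.62 after 1 h, and 7.33 and 7.04 after 24 h. Both 24 h estimates of depth thus lay below all others, while those at 0 h and 1 h overlapped. The part of depth in the losses below was not tested.

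Of the 119 regions, 49 (41.2%) were held by all 6 lists, against 43.3% of all regions. Another 23 (19.3%) appeared in 1 list, against 22.5% of all regions. The kept regions had a median merged width of 628 bp, while regions in 2 to 5 lists had a median of 336 bp and regions in 1 list 160 bp. Merged width grows with the number of lists joined, so this order is partly built in. Within single libraries the median width of the kept regions was 433 to 534 bp. The regions were spread unevenly by length of DNA. The ELL2 gene held 15 regions in 77.0 kb, or 19.5 per 100 kb, but only 2 of these 15 were held by all 6 lists. The 220.8 kb below ELL2 held 33 regions, 17 of them in all 6 lists. The 428.2 kb between the genes held 48, with 20 in all 6 lists. The PCSK1 gene held 3, with 1 in all 6, and the 231.0 kb above PCSK1 held 20, with 9 in all 6. The regions nearest the limits of the locus were one at 94999987 to 95000624, just inside with peaks in 6 lists, and one at 94991443 to 94991661, just outside with peaks in 2. At the upper limit the region at 95997147 to 95999225 was inside, and the next, at 96021088 to 96021468, was outside and had peaks of 4.58-fold and 4.70-fold at 0 h only.

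**Figure D1:**
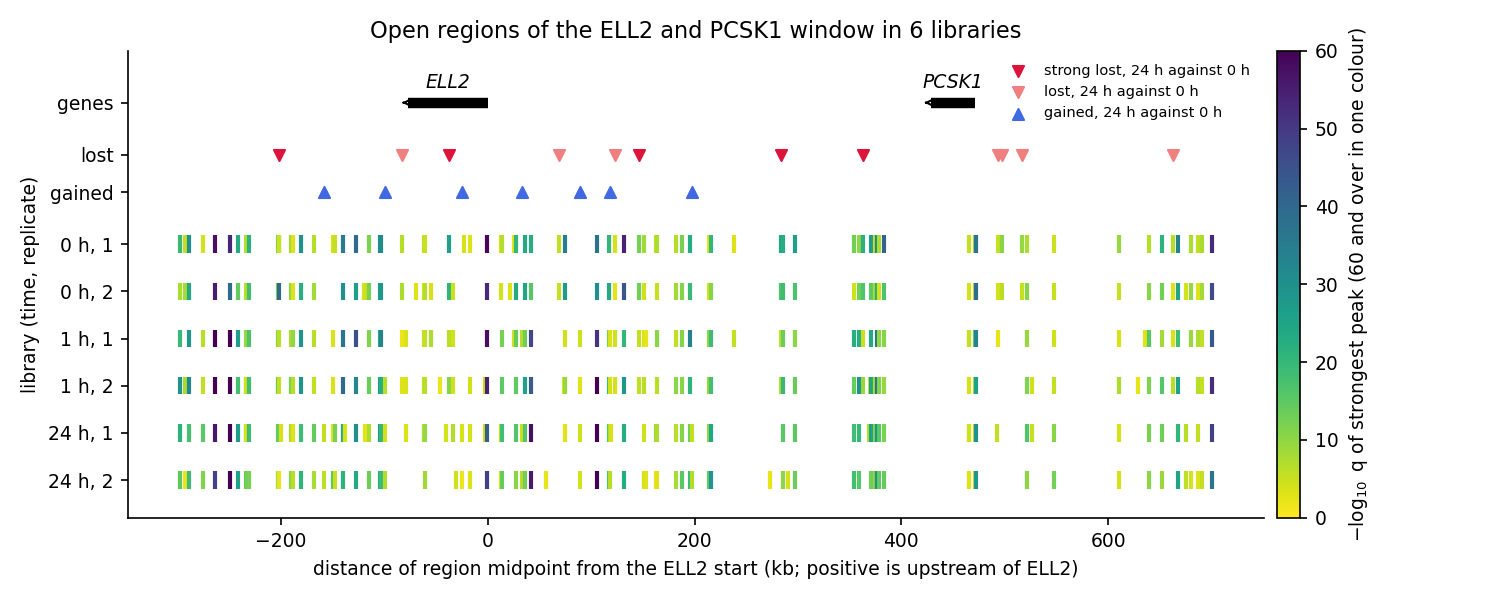
Each mark is a region with a peak in that library, placed by the distance in kb of its midpoint from the ELL2 start (positive toward PCSK1) and coloured by the −log10 q of its strongest peak. Triangles show the 5 strong regions lost at 24 h against 0 h, the 7 other lost ones and the 7 gained ones, and black bars show the 2 genes with arrows for their direction.

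At 24 h the locus lacked 5 regions that had been strong at 0 h. A region is called lost where both libraries of the earlier time held a peak and neither library of the later time did, gained in the reverse case, and strong lost where both earlier peaks were strong. The 0 h libraries shared 37 strong regions, of which 5 (13.5%) had no peak in either 24 h library, against 4.02% of 54131 regions over all chromosomes. At 1 h the same call was made for 1 of 37 (2.70%), against 1.51% of all. Of 2888 windows of 1 Mb, 19 (0.658%) had as many strong lost regions at 24 h or more, and 7 of those had more. The locus is also rich in regions, since only 45 windows (1.56%) had as many, and the median window held 56. With a −log10 q limit of 5 in place of 10, the counts were 9 at 24 h and 4 at 1 h. Since the locus was chosen with such values known, the count of 5 is a description. The 5 regions were also picked by their high 0 h values, so lower values at 1 h are partly built into the call. One of the 5 lies inside ELL2, 3 lie between the genes and 1 lies below ELL2.

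The lost region inside ELL2 lies at chr5:95260478-95260931, 37.1 kb into the gene from its start. Whether it is exonic or intronic was not read, as no hg19 annotation was used. The summit pileup, the number of tags stacked at the highest point, was 37 and 26 at 0 h and 16 and 21 after 1 h, and no peak was listed after 24 h. The authors' fold over local background was 9.95 and 10.48 at 0 h and 4.51 and 6.18 at 1 h. Both 1 h values were thus below both 0 h values. With each pileup divided by its own list's median at the 72695 regions held by all 6 lists, here called the scaled pileup, the 1 h mean was 0.590 of the 0 h mean. The nearest region kept in all 6 lists was 22748 bp away. It was 1 of only 2 regions in ELL2 that were strong in both 0 h libraries, the other being the gene's start.

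The region at chr5:95581017-95581622, 283.5 kb upstream of ELL2, had pileups of 43 and 28 at 0 h, 18 and 19 after 1 h, and no peak after 24 h. Its fold was 7.60 and 7.64 at 0 h and 4.00 and 4.47 at 1 h, and the scaled pileup at 1 h was 0.527 of that at 0 h. A neighbour 1198 bp away, at chr5:95582821-95583705, stayed in all 6 lists with folds of 7.33 and 8.09 at 0 h, 6.02 and 7.74 after 1 h, and 7.91 and 6.35 after 24 h. The neighbour's folds overlapped between times while the lost region's did not. The neighbour's scaled pileup was nonetheless lower in all 4 later libraries than in both 0 h libraries, at 0.865 of the 0 h mean after 1 h and 0.727 after 24 h.

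The region at chr5:95660451-95660814 lies 362.9 kb upstream of ELL2 and 108.4 kb from the start of PCSK1. Pileups there were 37 and 25 at 0 h and 17 and 24 after 1 h, with no peak after 24 h, and the scaled pileup at 1 h was 0.665 of that at 0 h. The region at chr5:95444295-95444581, 146.7 kb upstream of ELL2, was the least tall of the 5, with pileups of 19 and 16 at 0 h, 11 and 11 after 1 h, and no peak after 24 h. Its −log10 q was 12.6 and 13.1 at 0 h and 5.45 and 5.52 at 1 h. All 4 regions that still had peaks in both 1 h libraries had lower folds there than in either 0 h library. As they were picked for strong 0 h peaks and no 24 h peak, this order is a description and not evidence of an early fall.

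The fifth region, at chr5:95095379-95095773 and 202.2 kb below the ELL2 start, was the one strong region without a peak at 1 h as well. Its pileup was 43 and 49 at 0 h, its fold 8.22 and 13.05 and its −log10 q 25.6 and 39.8, the last being the highest −log10 q of the 5 regions in any library. Listed peaks remained beside it at 1 h. The closest region, at chr5:95095851-95096415, had weak peaks in both 1 h libraries, with folds of 4.43 and 4.21 and pileups of 17 and 16. It also had a peak in 1 library at 0 h (3.53-fold) and 1 at 24 h (3.14-fold). On the other side, a kept region lies 352 bp away at chr5:95094352-95095026, with pileups of 26 and 22 at 0 h, 23 and 27 after 1 h, and 23 and 16 after 24 h. The local background at that neighbour was 4.39 and 2.88 at 0 h, 3.08 and 3.10 after 1 h, and 2.12 and 1.92 after 24 h, and the part of these backgrounds in its fold was not tested. This neighbour was just inside the limit for a strong region, with a −log10 q of 10.35 and 10.68 at 0 h, and a region just outside that limit had 9.85 and 12.95.

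**Figure D2:**
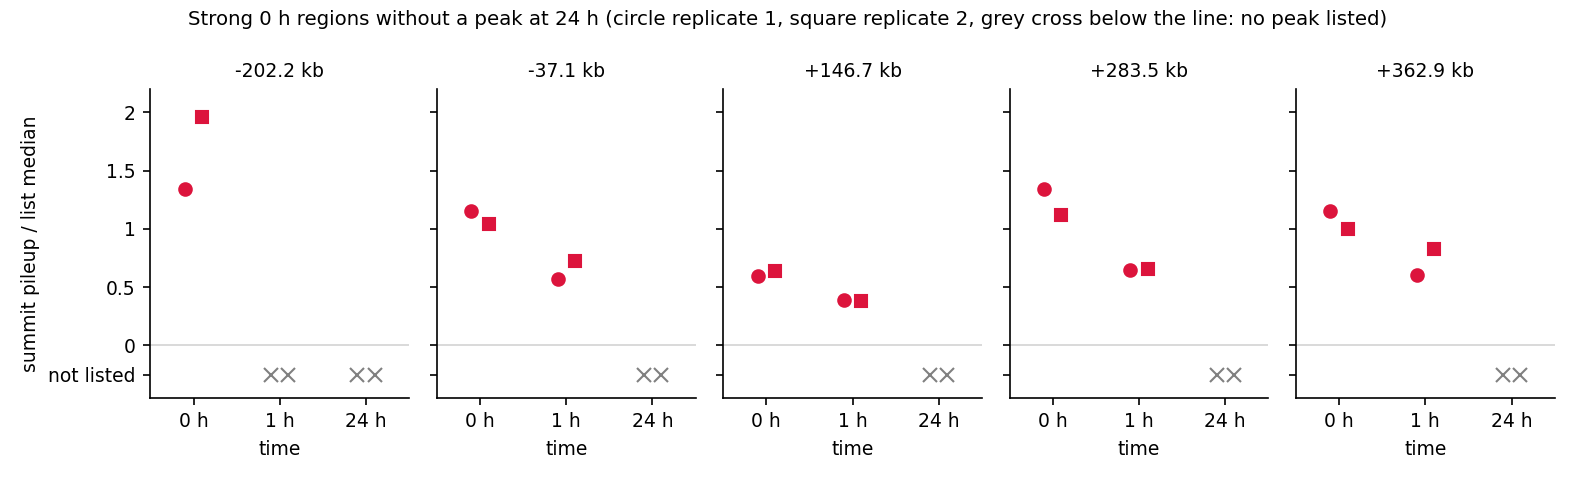
Each panel is 1 of the 5 strong lost regions, titled by its distance in kb from the ELL2 start, with the scaled pileup on the y axis and time on the x axis. Both 0 h points lie above both 1 h points in the 4 regions that have 1 h peaks, an order that picking regions strong at 0 h favours. Grey crosses below the line mark libraries that list no peak.

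Over all 37 regions strong at 0 h, most kept their peaks. At 1 h 29 were strong in both libraries, 7 had peaks in both but were not strong in both, and 1 had none. At 24 h 28 were strong in both libraries, 3 had peaks in both without being strong in both, 1 had a peak in 1 library and 5 had none. The 1 with a single peak lies at chr5:95372037-95373233, 74.9 kb upstream of ELL2, and is named because its values stood out. Its pileup was 54 and 36 at 0 h, 10 and 17 after 1 h, and 7 after 24 h in the single library that listed it. At 1 h its scaled pileup was 0.302 of that at 0 h, a lower ratio than in the 4 lost regions with 1 h peaks. Its summits lay up to 924 bp apart among libraries, so these peaks need not mark the same site. No region without peaks at 0 h was strong in both 1 h libraries (0 of 35, against 0.0338% of all) or in both 24 h libraries (0 of 39, against 0.748%). Between 24 h and 1 h none was strong lost (0 of 35, against 0.0896%) or strong gained (0 of 39, against 0.151%).

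With weaker regions counted, 12 of 69 regions held by both 0 h libraries were lost at 24 h (17.4%, against 13.1% of all), and 5 of 69 were lost at 1 h (7.25%, against 7.48%). Gains numbered 7 of 67 at 24 h (10.4%, against 6.54%) and 3 of 68 at 1 h (4.41%, against 3.93%). At 24 h against 1 h, 6 of 68 were lost (8.82%, against 6.42%) and 7 of 67 gained (10.4%, against 3.85%). The 1 h shares were near those of all regions. The 24 h shares of both losses and gains were above them, but only by a few regions. The numbers of gains also moved with the settings and with libraries left out, as given at the end. The 7 lost regions outside the strong class had pileups of 6 to 22 and folds of 3.66 to 6.75 at 0 h. In the window the lowest pileup listed was 8 and 6 at 0 h, 7 and 7 after 1 h, and 7 and 6 after 24 h, and several of these weak regions had 0 h pileups close to those values. One of the weaker regions lost at 24 h lies 5.9 kb beyond the far end of ELL2, at chr5:95214327-95215432, with pileups of 22 and 18 at 0 h, 13 and 15 after 1 h, and no peak after 24 h. A cluster of 3 lies just upstream of PCSK1, 22.2, 26.6 and 45.9 kb from its start, with pileups of 8 to 18 at 0 h. The middle one, at chr5:95795362-95795738, had folds of 6.75 and 5.74 at 0 h and no peak at 1 h or 24 h.

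The 7 gained regions had pileups of 7 to 19 and folds of 3.15 to 5.76 at 24 h, and 4 of them lie between the genes. At chr5:95139132-95139500, 158.5 kb below the ELL2 start, the fold was 5.20 and 5.43 at 24 h with no peak at 0 h or 1 h. At chr5:95494871-95495039, 197.2 kb upstream of ELL2, it was 4.83 and 5.39 at 24 h, again with none earlier. At chr5:95416313-95416605, 118.7 kb upstream, peaks of 3.74-fold and 4.16-fold at 1 h were followed by 5.76-fold and 5.27-fold at 24 h. The region at chr5:95387028-95387437 had peaks in both 1 h libraries (4.58 and 3.78) and both 24 h libraries (4.81 and 4.60), and that at chr5:95330700-95330998 had one at 1 h (5.04) and both at 24 h (4.59 and 5.24). Inside ELL2, 24.9 kb from its start, the region at chr5:95272611-95273045 was gained with pileups of 9 and 7 at 24 h. The strict call misses regions with a weak peak in 1 of the 0 h libraries, of which 3 are given, chosen by their values. At chr5:95311377-95311800, 13.8 kb upstream of ELL2, the fold was 5.35 in 1 library at 0 h, 7.92 and 8.83 after 1 h, and 10.59 and 9.20 after 24 h. At chr5:95022361-95022739 it was 4.20 in 1 library at 0 h, 5.42 and 5.04 after 1 h, and 9.63 and 8.17 after 24 h. Inside PCSK1, 6.2 kb from its start at chr5:95762580-95763060, it was 3.82 in 1 library at 0 h, 6.25 and 4.20 after 1 h, and 7.22 and 8.68 after 24 h. The folds of all 3 were higher in both 24 h libraries than in any earlier one, and so were their scaled pileups. The pileups themselves overlapped between 1 h and 24 h in the first, at 18 and 20 against 21 and 17. They also did in the last, at 14 and 9 against 14 and 16. Local background at all 3 was 1.62 at 0 h, 1.40 and 1.38 after 1 h, and 1.08 and 0.958 after 24 h. The part of this background in the folds was not tested.

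**Figure D3:**
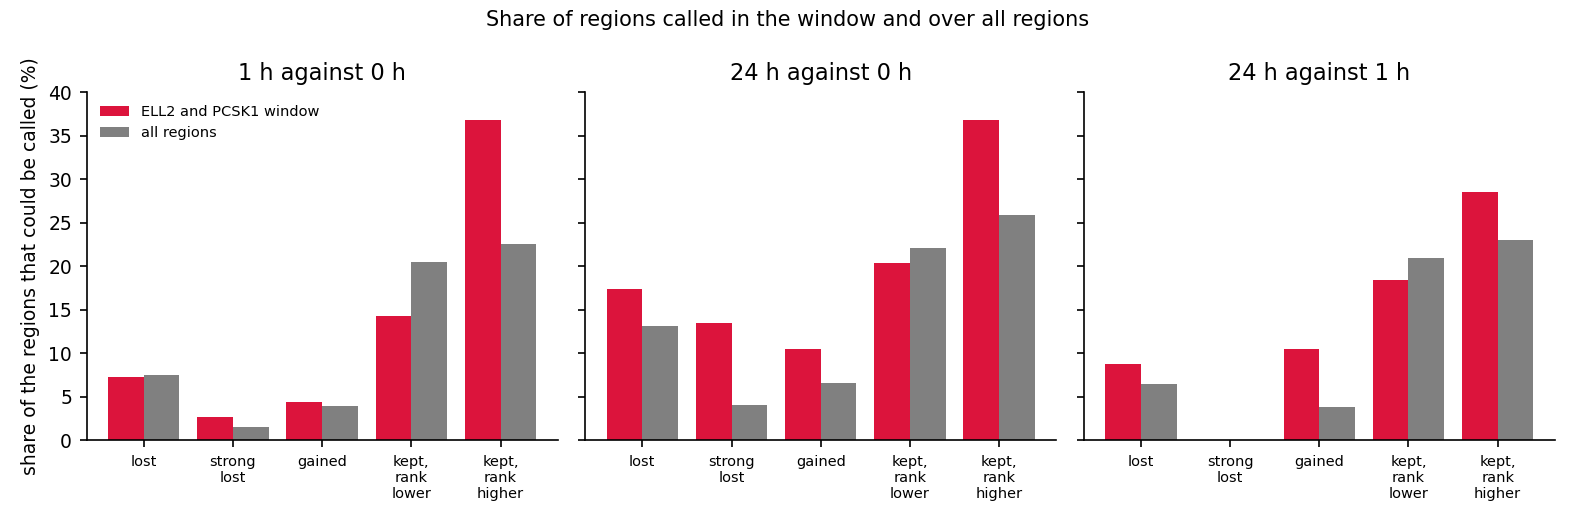
Bars give the share (%) of regions with each call among those that could have it, in the locus (red) and over all regions (grey), for each pair of times. Strong losses at 24 h against 0 h stand at 13.5% in the locus and 4.02% over all regions, and rank lower or higher means that both later libraries ranked below or above both earlier ones.

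The start of ELL2 held a tall peak in all 6 libraries. The region over it, chr5:95296016-95297893, had pileups of 118 and 90 at 0 h, 117 and 112 after 1 h, and 84 and 85 after 24 h, and no region of the locus was taller in any library but the first at 24 h. Those pileups ranked between the 93.1 and 97.3 percentiles of the regions held by all 6 lists. The fold was 7.32 and 9.05 at 0 h, 7.19 and 7.05 after 1 h, and 7.28 and 8.54 after 24 h. Both 1 h folds lay below all others, while those at 0 h and 24 h overlapped. The percentile of fold, 42.7 and 51.9 at 0 h, 43.4 and 37.0 after 1 h, and 42.2 and 53.9 after 24 h, overlapped between all times. On the log2 scale the scaled pileup at 24 h differed from that at 0 h by -0.02, the 24 h mean being 0.987 of the 0 h mean. Its background was high, between 9.06 and 15.4 tags, and its fold ranked between the 37.0 and 53.9 percentiles.

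The start of PCSK1 was weakly open. Its region at chr5:95768181-95769094 had pileups of 16 and 10 at 0 h, 23 and 15 after 1 h, and 12 and 10 after 24 h. The percentile of its fold was 11.5 and 5.00 at 0 h, 40.1 and 7.65 after 1 h, and 5.56 and 3.93 after 24 h. The first 1 h library stood above the others and its partner did not, so the percentiles at 0 h overlapped those at both later times. Both 24 h values lay below both 1 h values, in percentile and in pileup. A stronger region 726 bp further upstream, at chr5:95769821-95770283, had folds of 12.60 and 15.98 at 0 h, 12.14 and 10.39 after 1 h, and 12.22 and 12.41 after 24 h. Its 24 h folds both lay below its 0 h folds, yet its scaled pileup at 24 h was 0.976 of that at 0 h.

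Among the 49 regions kept in all 6 lists, more ranked higher at the later times than lower, as also held by a smaller margin over all kept regions. Their median percentile of fold was 42.8 and 39.6 at 0 h, 41.8 and 43.8 after 1 h, and 49.8 and 44.8 after 24 h. They thus started below the middle. The percentile of fold was higher in both 24 h libraries than in both 0 h libraries in 18 of 49 (36.7%, against 25.9% of all kept regions) and lower in 10 (20.4%, against 22.1%). At 1 h against 0 h 18 were higher (36.7%, against 22.5%) and 7 lower (14.3%, against 20.5%). At 24 h against 1 h 14 were higher (28.6%, against 23.0%) and 9 lower (18.4%, against 20.9%). The median change was 3.24 percentile points at 1 h, 1.00 at 24 h and 1.75 at 24 h against 1 h, beside 0.35, 0.40 and 0.17 over all kept regions. These comparisons share libraries. The scaled pileup of all kept regions itself stood 0.10 higher at 1 h than at 0 h (median log2), beside 0.18 in the locus. At 24 h it stood 0.04 higher, beside 0.12 in the locus.

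Among the kept regions, the largest positive difference in scaled pileup at 24 h against 0 h lay 42.2 kb upstream of ELL2, at chr5:95339598-95340283. Its pileup was 29 and 19 at 0 h, 52 and 49 after 1 h, and 62 and 61 after 24 h, so the times did not overlap. The percentile of its fold was 75.2 and 58.3 at 0 h, 97.8 and 94.5 after 1 h, and 98.2 and 97.6 after 24 h, and its scaled pileup at 24 h was 3.14 times that at 0 h (log2 1.66). A region 106.1 kb upstream, at chr5:95403464-95404245, had pileups of 50 and 37 at 0 h, 62 and 72 after 1 h, and 69 and 69 after 24 h, which overlap between 1 h and 24 h. Its scaled pileup did not overlap, at 1.56 and 1.48 at 0 h, 2.21 and 2.48 after 1 h, and 2.88 and 3.00 after 24 h. The 24 h scaled pileup was 1.93 times that at 0 h. Both regions belonged to the 5 of highest mean rank. The other 3 lie below ELL2, at chr5:95048048-95048648, chr5:95033517-95034429 and chr5:95170361-95170938, with folds of 11.5 to 18.2 over the 6 libraries. The first of these 3 had folds of 18.2 and 17.6 at 24 h, against 15.3 and 15.8 at 0 h.

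The other 4 regions with the largest positive differences of rank at 24 h included 3 that ranked low at 0 h. Regions were picked for this difference without overlap of libraries, so low 0 h ranks are partly built in. At chr5:95845550-95846008, 76.8 kb upstream of PCSK1, the percentile of fold was 10.2 and 12.7 at 0 h, 10.6 and 13.1 after 1 h, and 46.3 and 55.6 after 24 h, a difference of 39.55 points at 24 h against 0 h. Its pileups were 11 and 9 at 0 h, 10 and 11 after 1 h, and 15 and 16 after 24 h, so this difference rests on few tags. At chr5:95511745-95512198, 214.2 kb upstream of ELL2, it was 2.14 and 9.51 at 0 h, 32.4 and 25.3 after 1 h, and 30.5 and 49.0 after 24 h. That region had pileups of 8 and 9 at 0 h, 18 and 17 after 1 h, and 18 and 22 after 24 h. Its neighbour at chr5:95513019-95513520 ranked at 72.9 and 37.8 at 0 h, 65.4 and 60.6 after 1 h, and 75.03 and 85.2 after 24 h. At chr5:95063594-95064023, 234.0 kb below the ELL2 start, the percentile was 3.15 and 5.17 at 0 h, 8.03 and 9.82 after 1 h, and 36.7 and 22.6 after 24 h. In the first of these the 1 h values overlapped those at 0 h, while in the second and the last both 1 h values lay above both 0 h values.

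**Figure D4:**
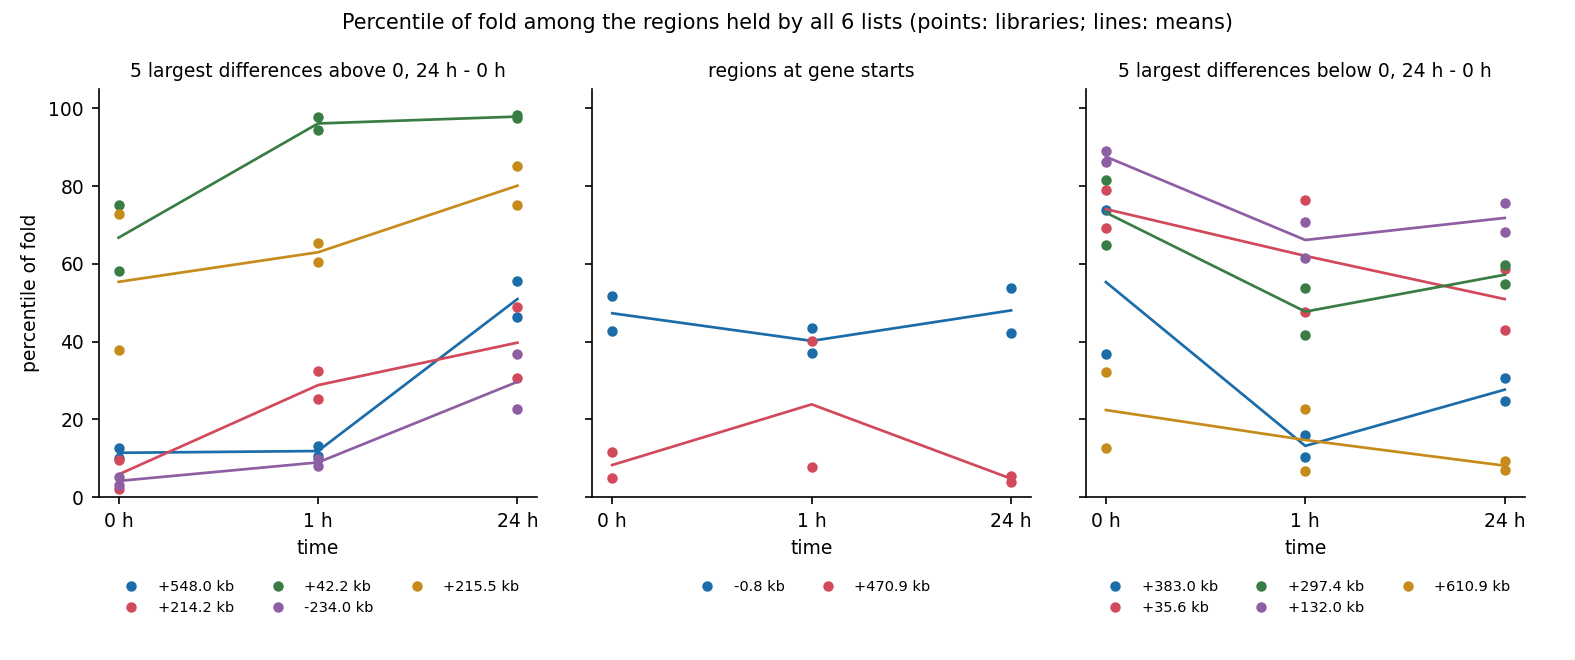
Points give each library's percentile of fold among the regions held by all 6 lists, and lines join the means of 2 libraries at 0 h, 1 h and 24 h. The left panel holds the 5 largest positive differences at 24 h against 0 h, the middle one the regions at the starts of ELL2 (-0.8 kb) and PCSK1 (+470.9 kb), and the right one the 5 largest negative differences, each named by its distance in kb from the ELL2 start.

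The largest negative difference of rank at 24 h against 0 h was at chr5:95680371-95681159, 88.2 kb from the start of PCSK1, with percentiles of 73.9 and 36.7 at 0 h, 16.0 and 10.4 after 1 h, and 24.7 and 30.6 after 24 h. Its pileup was 60 and 29 at 0 h, 28 and 26 after 1 h, and 26 and 28 after 24 h, so the first 0 h library stood apart from the other 5. At chr5:95429033-95430423, 132.0 kb upstream of ELL2, the pileup was 73 and 52 at 0 h, 31 and 41 after 1 h, and 29 and 31 after 24 h, and all later values lay below both 0 h values. Its peak was also narrower, 543 and 458 bp at 24 h against 1391 and 1097 bp at 0 h, and its scaled pileup at 24 h was 0.586 of that at 0 h. At chr5:95332987-95333712, 5885 bp from the region with the largest positive difference in scaled pileup, the percentile was 69.3 and 78.9 at 0 h, 47.7 and 76.4 after 1 h, and 58.8 and 43.1 after 24 h. These neighbours thus differed in opposite directions between 24 h and 0 h. Smaller differences were -15.99 points at chr5:95594895-95595372 and -14.32 points at chr5:95908517-95908929. The latter region had low pileups, 16 and 9 at 0 h, 9 and 13 after 1 h, and 8 and 8 after 24 h. As the regions with negative differences were picked for them, higher ranks at 0 h than at 24 h are built in.

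Among the kept regions, the peak at 24 h against 0 h was narrower in both libraries in 9 of 49 (18.4%, against 26.9% of all) and wider in 7 (14.3%, against 12.0%). At 1 h against 0 h 15 were wider (30.6%, against 30.2%) and 5 narrower (10.2%, against 7.50%). Between 24 h and 1 h 20 were narrower at 24 h (40.8%, against 47.7%) and 5 wider (10.2%, against 4.71%). The shortest peak in a list, which follows the fragment length used by the peak caller, was 155 and 111 bp at 0 h, 172 and 160 bp after 1 h, and 147 and 136 bp after 24 h. The widest region, chr5:95997147-95999225 at the upper limit of the locus, had pileups of 106 and 80 at 0 h, 96 and 103 after 1 h, and 88 and 70 after 24 h.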

How the data were processed

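Open chromatin was measured by ATAC-seq in 6 libraries, with 1 peak list per library and no pooling of replicates. The submitters' processing notes name the build hg19 and the tools fastp, FastQC, Bowtie2 and MACS2. Versions, parameters, a read shift and duplicate removal are not given in the sources used here. Each peak's fold (a ratio of summit pileup to local background, each plus 1), the −log10 p, the −log10 q and the score are values the authors deposited, here used to describe peaks and to rank them inside 1 list.

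Overlapping peaks (1 bp or more) of the 22 autosomes and X were merged. A whole-number summit pileup was recovered from the deposited fold and −log10 p of each peak. With it the deposited −log10 p was given back within 0.001 for 100.0% of peaks. Percentiles were taken within each list among the 72695 regions that all 6 lists hold. Scaled pileups were divided by the list's median there. Tags per kb are the commonest background divided by the shortest peak. Python 3.11.15, pandas 2.3.3 and SciPy 1.17.1 were used, and the calls were tested on simulated lists.

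The locus, its limits and the calls were chosen with earlier results of these data known. No test was run: 2 libraries against 2 cannot go below an exact two-sided permutation p of 0.333. Regions named are those at both gene starts, the strong lost ones, the 5 of highest mean rank, the 5 most highly ranked gains, the 5 largest positive and negative differences of rank without overlap of libraries, and the widest. Other regions were named for their place or values after these were seen. Alternatives were a −log10 q limit of 5 and, for strong regions, 15, a strict call on strong regions, lists cut to the shortest length (101755 peaks), 50% cover to count as shared, ranks by −log10 p, the scaled pileup and leaving out each library. The scaled pileup and the other limits for strong regions were added after seeing the data.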

Additional observations from a re-analysis of the deposited data

How the results depend on the processing

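No paired analysis was possible because no result comes from a test that could carry a block, and the labels do not say what equal replicate numbers share. The median changes of rank stayed above 0 under each alternative run. The balance of losses and gains did not hold: 12 lost and 7 gained at 24 h against 0 h were 15 and 18 without the second 24 h library, and 5 lost and 3 gained at 1 h against 0 h were 3 and 4 with 50% cover and 9 and 12 without the first 1 h library. At 24 h against 1 h, 6 lost and 7 gained were 11 and 9 without the first 1 h library, 12 and 9 without the second, and 6 and 4 in lists of one length. Small changes of rank at 24 h against 0 h also turned: 0.74 points at the ELL2 start was -2.81 by −log10 p, 3.36 at the widest region was -0.96 by −log10 p, and -3.51 at the PCSK1 start and -3.73 at chr5:95170361-95170938 were 0.06 and 0.04 as log2 scaled pileup. At chr5:95033517-95034429, -0.04 points was 0.82 by −log10 p. The 5 strong regions lost at 24 h against 0 h were 4 with a −log10 q limit of 15, 9 with a limit of 5, and 5 to 6 without any 1 library. With the limit of 5, strong counts were 4 lost at 1 h against 0 h, 3 gained at 24 h against 0 h, and 3 lost and 4 gained at 24 h against 1 h. Strong regions alone gave 1 and 5 of the losses and 0 and 0 of the gains at 1 h and 24 h against 0 h, and 0 of each at 24 h against 1 h. Requiring 50% cover gave 3 losses at 1 h against 0 h, and lists of one length gave 4 gains at 24 h against 1 h. Ranked by −log10 p, the median change at 1 h against 0 h was 5.58 points. Mean peaks per library at 0 h, 1 h and 24 h were 63.5, 63.5 and 61.0 above a −log10 q limit of 5, and 69.5, 74.5 and 76.0 in lists of one length. Covered length at 1 h and 24 h was 33.34 and 28.46 kb with that limit, and 36.14 and 32.26 kb in lists of one length.

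Leaving out a library asks less of a call, so counts go up. Without each library in turn, 1 h against 0 h had 7 to 11 losses, 4 to 12 gains, 1 to 2 strong losses, 0 to 1 strong gains and a median change of 2.00 to 3.01 points. At 24 h against 0 h there were 14 to 17 losses, 8 to 18 gains, 0 to 2 strong gains and a median of 0.76 to 3.48 points. At 24 h against 1 h there were 8 to 12 losses, 9 to 14 gains, 0 to 1 strong losses, 0 to 1 strong gains and a median of 0.56 to 3.22 points. The 24 h gains against 0 h were 18 without the second 24 h library, 13 without the first 24 h library and 14 without the first 0 h library, and the 1 h gains were 12 without the first 1 h library. The cause was not tested.

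Peak lists hold no value for a region without a peak, so a loss says only that it fell under what that library's list holds. Estimated depth was lowest at 24 h, and its part in the losses of weak regions was not tested.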
